A study of Mus musculus with 5 samples.

Results

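The guanylate-binding proteins (GBPs) and immunity-related GTPases (IRGs) are families of interferon-inducible enzymes, and 8 of their genes were followed here out of 17756 genes measured. The genes were Gbp2, Gbp3, Gbp6, Gbp7, Igtp, Irgm1, Irgm2 and Iigp1. Each was taken by name, as a row of the deposited table whose platform annotation gave that symbol alone, and all 8 had exactly 1 row. The samples were cells of C57Bl/6 embryos at E11.5, sorted from the AGM (aorta-gonad-mesonephros), where the first blood stem cells arise, for VE-cadherin (an endothelial protein, VE in the labels) and CD45 (a leukocyte protein). The IFNa group (n = 3 arrays) had 0.5 ng/ml interferon-alpha for 4 hours and the vehicle group (n = 2 arrays, numbered 2 and 3) had vehicle for the same time. Both groups were cultured in the same serum-containing medium, and no allele or transgene is named for either. The series title asks whether interferon-alpha promotes stem cell maturation in this region.

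GBPs and IRGs are GTPases that gather on the vacuoles of intracellular bacteria and parasites and help to break them open. Their genes are induced most strongly by interferon-gamma, in part through IRF1, and also by type I interferons such as interferon-alpha, through a complex that holds STAT2 and IRF9. The 2 routes read different DNA motifs, the gamma-activated site (GAS) and the interferon-stimulated response element (ISRE). In blood stem cells the family is known chiefly through Irgm1, whose loss in mice disturbs stem cell quiescence.

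The promoters are shown because they carry the motifs through which interferons are known to act on these genes. Sequences from the RefSeq promoter table (GRCm38.p6) were used for 6 of the 8 genes. Gbp6 had no entry there, and Iigp1 was left out before the motif search. The lines give the 110 bases before the start site, 5′ to 3′ on the gene's own strand. Capitals mark the ISRE core (GAAA, any 2 bases, GAAA again) on either strand and the GAS core (TTC, any 3 bases, GAA), which reads the same on both strands.
Gbp2, chr3:142620553-142620662, plus strand: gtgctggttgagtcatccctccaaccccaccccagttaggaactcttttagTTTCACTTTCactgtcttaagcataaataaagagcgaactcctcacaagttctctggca
Gbp3, chr3:142559934-142560043, plus strand: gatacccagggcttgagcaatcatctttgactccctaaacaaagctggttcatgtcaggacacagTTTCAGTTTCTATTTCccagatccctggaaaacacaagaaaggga
Gbp7, chr3:142530226-142530335, plus strand: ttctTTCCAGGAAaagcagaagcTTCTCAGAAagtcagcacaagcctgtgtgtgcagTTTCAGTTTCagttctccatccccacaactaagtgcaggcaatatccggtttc
Igtp, chr11:58199446-58199555, plus strand: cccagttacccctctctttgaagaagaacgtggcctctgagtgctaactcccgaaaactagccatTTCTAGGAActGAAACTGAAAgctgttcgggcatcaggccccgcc
Irgm1, chr11:48871421-48871530, minus strand: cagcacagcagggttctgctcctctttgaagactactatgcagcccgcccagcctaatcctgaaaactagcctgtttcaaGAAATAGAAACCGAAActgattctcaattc
Irgm2, chr11:58214867-58214976, plus strand: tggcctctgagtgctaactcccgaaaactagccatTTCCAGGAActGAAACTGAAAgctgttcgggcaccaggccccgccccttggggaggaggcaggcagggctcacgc

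All 6 genes held at least 1 ISRE core in this stretch, between 64 and 15 bases before the start site. In Gbp3 and Irgm1 there were 2 matches that overlapped each other. Of all 32851 promoter entries, 1.11% held the ISRE core in the same 110 bases, and 3.44% in the whole 300-base window (250 bases before to 50 after the start). Gbp3 had a second entry, for another start site, without a match. The GAS core was found in Gbp7 (2 matches), Igtp and Irgm2, against 2.85% of all entries in the same 110 bases and 8.30% in the whole window. In Igtp and Irgm2, which are neighbouring genes on chromosome 11, the GAS core lay just before the ISRE core, and 184 of 270 aligned bases of the windows were identical without gaps. Gbp2, Gbp3 and Gbp7 lie in a cluster on chromosome 3, and Gbp6 on chromosome 5. A match is a run of letters and no evidence of binding.

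Signals are log2 probe set signals as the authors deposited them, so a difference of 1 is 2-fold. Array medians over all rows were 4.98 to 5.15. The spread of the values was wider with IFNa, with an SD over all rows of 2.68 to 2.80 against 2.53 and 2.64 with vehicle. The labelled cells were checked by their sort markers. Ptprc, which encodes CD45, read 5.35 to 7.03 with IFNa and 7.23 and 8.95 with vehicle, and Cdh5, which encodes VE-cadherin, read 6.23 to 8.55 and 6.93 and 9.20. The part of the lower Ptprc signal (adjusted p = 0.441, limma) in the results was not tested. All 12 measured macrophage markers exceeded 3.22, the 20th percentile of the table, on at least 1 array. So did every measured erythroid, endothelial and mesenchymal marker. Of all 17756 genes only 1820 stayed below it on every array, as did 2 of 6 lymphoid and NK markers, so passing it is common. The mean signal of the macrophage markers was 10.9 to 11.3 with IFNa and 11.4 on both vehicle arrays. Their differences ran from -2.54 (Timd4) to 0.82 (Mertk), with a median of -0.064, 5 above 0 and 7 below. Macrophages also express GBPs and IRGs, and no detection calls or cell counts were used, so the signals belong to the sorted cells as a mixture. In such bulk samples fewer cells of a type and less RNA per cell cannot be told apart. Signals of different probe sets are not compared with each other.

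None of the 4 GBP genes differed detectably between IFNa and vehicle. Gbp2, which coats parasite vacuoles, read 7.35, 6.95 and 7.35 on the IFNa arrays and 6.94 and 7.29 on the vehicle arrays. The groups overlapped, since both held 1 array near 6.9 and at least 1 near 7.3. Its difference was 0.10 ± 0.47 (moderated standard error, SE) on the log2 scale (adjusted p = 0.976, limma). Its probe set is of the x_at kind, which can match other transcripts, so the signal is uncertain.

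Gbp3, from the same chromosome 3 cluster, read 9.77, 9.31 and 9.68 with IFNa and 9.39 and 9.49 with vehicle. IFNa replicate 2 was the lowest of the 5 arrays and the other two IFNa arrays were the highest. The difference of 0.15 ± 0.42 had an adjusted p of 0.962 in limma.

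Gbp6, of the chromosome 5 cluster, had the largest difference of the 8 genes and the widest spread. It read 7.04, 5.72 and 6.92 with IFNa and 5.83 and 6.07 with vehicle. IFNa replicates 1 and 3 lay above both vehicle arrays and IFNa replicate 2 below both. The difference was 0.61 ± 0.55, a 1.53-fold value with a 95% interval of 0.614-fold to 3.80-fold, and the adjusted p was 0.810 in limma. Without IFNa replicate 2 the difference was 1.03, and without IFNa replicate 1 it was 0.37.

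Gbp7, which helps to assemble the phagocyte oxidase on vacuoles, read 10.1, 10.2 and 9.17 with IFNa and 9.73 and 9.80 with vehicle. Here it was IFNa replicate 3 that lay lowest, with the other two IFNa arrays highest. The difference was 0.04 ± 0.47 (adjusted p = 0.992, limma). It was 0.35 without IFNa replicate 3 and fell to -0.15 without IFNa replicate 2.

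**Figure D1:**
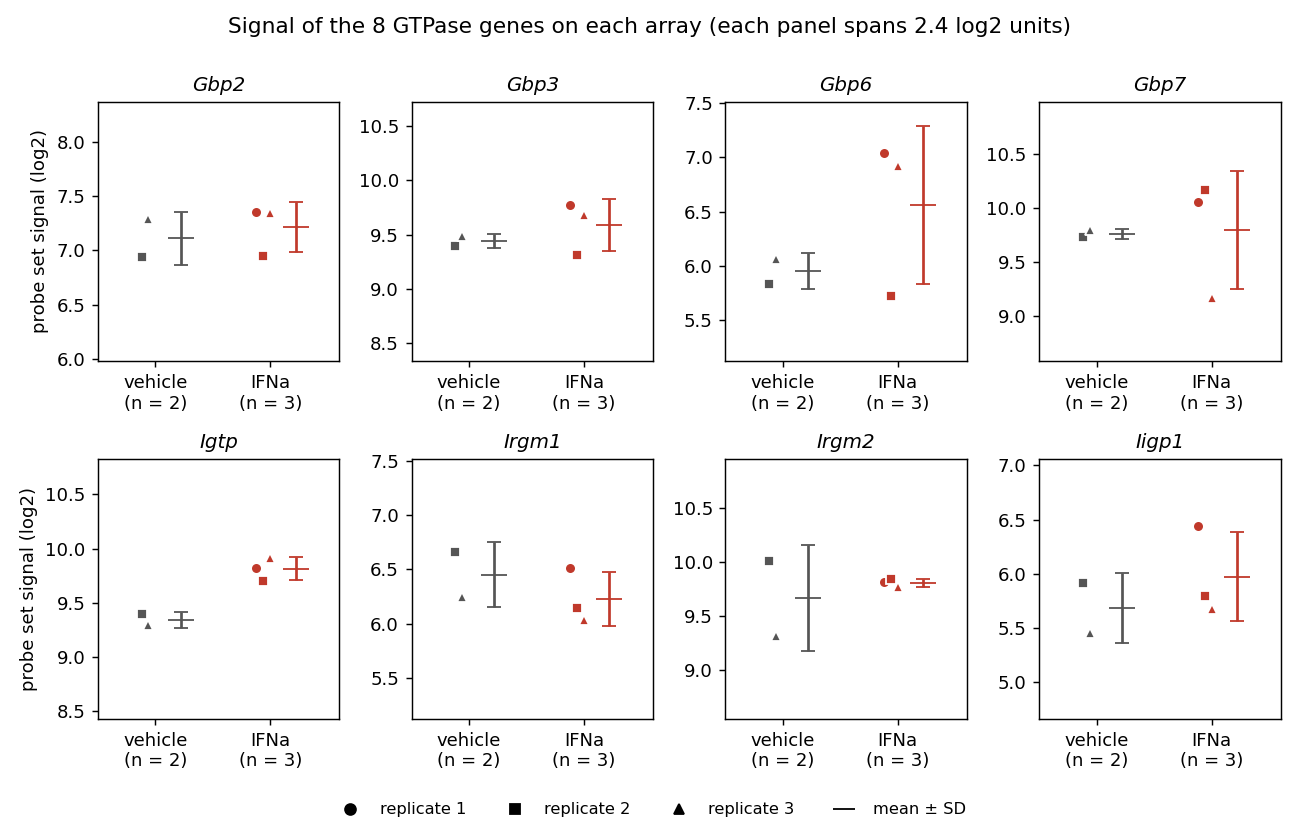
Log2 probe set signal of each of the 8 genes on every array, with vehicle in grey (n = 2) and IFNa in red (n = 3), symbols for the replicate number and bars for mean ± SD. All panels span the same log2 range; Igtp is the gene whose IFNa arrays (9.70 to 9.92) all lie above its vehicle arrays (9.29 and 9.40).

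Of the 4 IRG genes, Igtp was higher on every IFNa array but did not pass the threshold. Igtp, also called Irgm3, is a regulatory IRG that sits on internal membranes and keeps effector IRGs inactive there. It read 9.82, 9.70 and 9.92 with IFNa and 9.40 and 9.29 with vehicle, so the groups did not overlap. The means were 9.81 ± 0.11 (SD, n = 3) and 9.34 ± 0.075 (SD, n = 2). The difference was 0.47 ± 0.40 (SE), or 1.39-fold with a 95% interval of 0.714-fold to 2.69-fold, and the adjusted p was 0.796 in limma. Left out in turn, the arrays gave 0.42 to 0.53. After a repeated quantile normalization the difference was 0.18, and the lowest IFNa array and the highest vehicle array were then both at 9.56.

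Irgm2, the neighbour of Igtp and another regulatory IRG, read 9.81, 9.84 and 9.77 with IFNa, the closest agreement of any gene of the 8 within that group (SD 0.038). The vehicle arrays lay on either side of these, at 10.0 and 9.32. The difference of 0.14 ± 0.43 (adjusted p = 0.963, limma) therefore depended on which vehicle array was used. Leaving out vehicle replicate 2 gave 0.49, and leaving out vehicle replicate 3 gave -0.20.

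Irgm1, the regulatory IRG needed against mycobacteria and for stem cell quiescence, was the gene of the 8 with a mean below vehicle. It read 6.51, 6.14 and 6.03 with IFNa and 6.66 and 6.24 with vehicle. The highest array was a vehicle array and the groups overlapped. The difference of -0.22 ± 0.44 did not pass (adjusted p = 0.940, limma). Leaving out vehicle replicate 2 gave -0.012, and leaving out vehicle replicate 3 gave -0.43. Its 95% interval, -1.28 to 0.83, was the only one of the 8 that excluded a 2-fold rise.

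Iigp1, also called Irga6, is an effector IRG that loads onto parasite vacuoles. It read 6.44, 5.80 and 5.68 with IFNa and 5.91 and 5.46 with vehicle. IFNa replicate 1 stood above the other arrays, and vehicle replicate 2 lay above the other two IFNa arrays. The difference was 0.29 ± 0.45 (adjusted p = 0.916, limma), or 0.05 without IFNa replicate 1.

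Of the 8 genes, limma called 0 (Benjamini-Hochberg adjusted p under 0.05 over all genes), and 0 reached an unadjusted p under 0.05. Of all 17756 genes limma called 0.135%, and 10.0% reached an unadjusted p under 0.05. IFNa and vehicle arrays lay fully apart for 1 of the 8 genes, Igtp, and for 25.6% of all genes, so that count is no result about these genes. The median difference of the 8 genes was 0.15, with 7 above 0 and 1 below. It was -0.04 over all genes and 0.08 over the genes above the median signal, where all 8 lie. After a repeated quantile normalization, which equalizes the spread of the arrays, the median of the 8 genes was -0.087, with 3 above 0 and 5 below, and that of all genes 0.02. The part of the wider IFNa arrays in these signs was not tested.

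**Figure D2:**
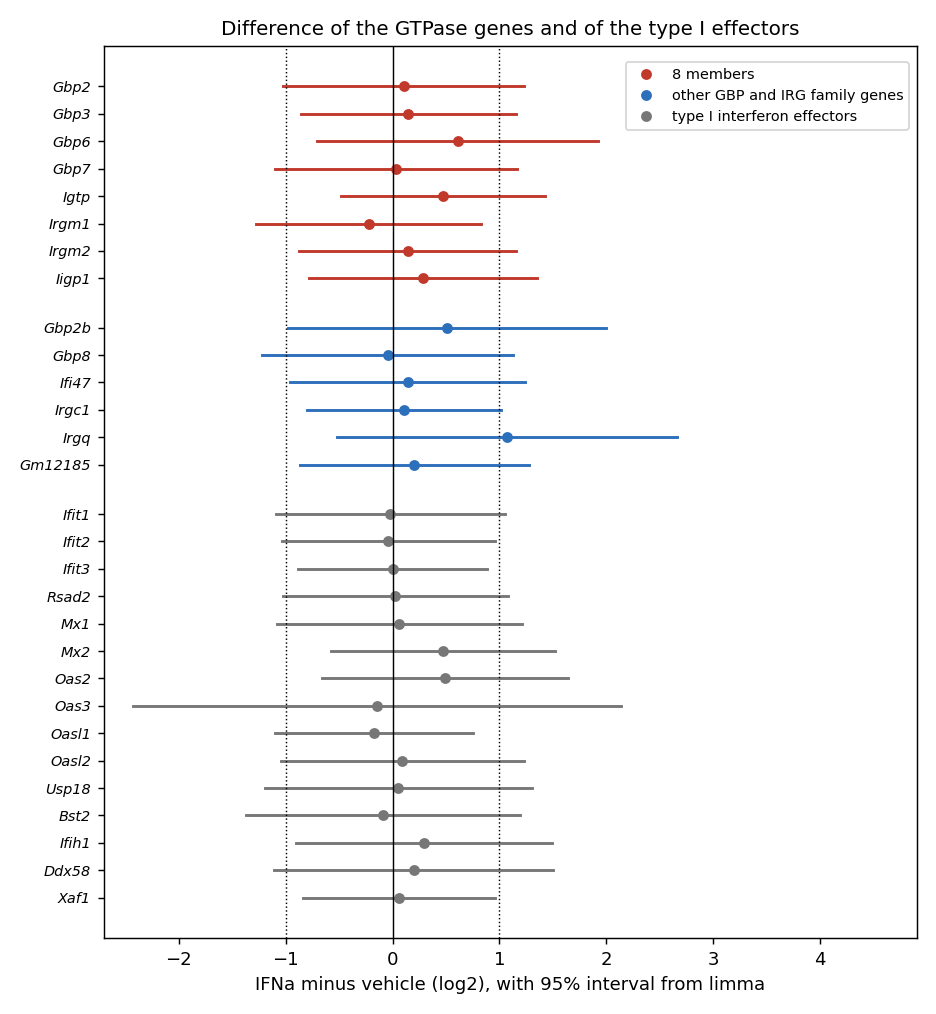
Difference between IFNa and vehicle on the log2 scale (points) with 95% intervals from limma (lines) for the 8 genes, 6 other measured family genes and 15 type I interferon effectors, with dotted lines at a 2-fold change. Every interval includes 0, and among the 8 genes only that of Irgm1 ends below a 2-fold rise.

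A 2-fold rise was thus excluded for 1 of the 8 genes and a 2-fold fall for 5. For these intervals limma draws each gene's variance towards that of genes at a like signal. The spread between arrays within a group was below the median of all genes (0.42) for 6 of the 8. It was 0.098 for Igtp, 0.20 for Gbp3 and 0.24 for Gbp2, and the wider ones were Gbp6 at 0.60 and Gbp7 at 0.45. For Igtp the difference of 0.47 was larger than the spread between its own replicates, and its moderated interval of -0.49 to 1.43 included 0. All 8 genes lay above the 20th percentile of the table (3.22) on every array.

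The 8 genes did not vary as 1 unit across the arrays. On IFNa replicate 1 all 8 lay above their own mean over the 5 arrays, and their mean deviation was 0.31. On the other IFNa arrays 3 of 8 (replicate 2) and 5 of 8 (replicate 3) did so, with mean deviations of -0.09 and 0.02. On the vehicle arrays 3 of 8 (replicate 2) and 2 of 8 (replicate 3) did so, at -0.06 and -0.18. IFNa replicate 1 was the highest array for 4 genes and the lowest for none, and vehicle replicate 3 was the highest for none and the lowest for 3. The range of the mean deviation over the 5 arrays was 0.48, and its extremes were 1 IFNa array and 1 vehicle array rather than the 2 groups. These 2 arrays also had the widest and the narrowest spread over all rows (SD 2.80 and 2.53). After a repeated quantile normalization, vehicle replicate 3 was the highest array for Gbp2, Gbp3 and Gbp7, and IFNa replicate 1 only for Iigp1. The pattern thus holds for the deposited signals, and the part of the array spread in it was not tested.

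**Figure D3:**
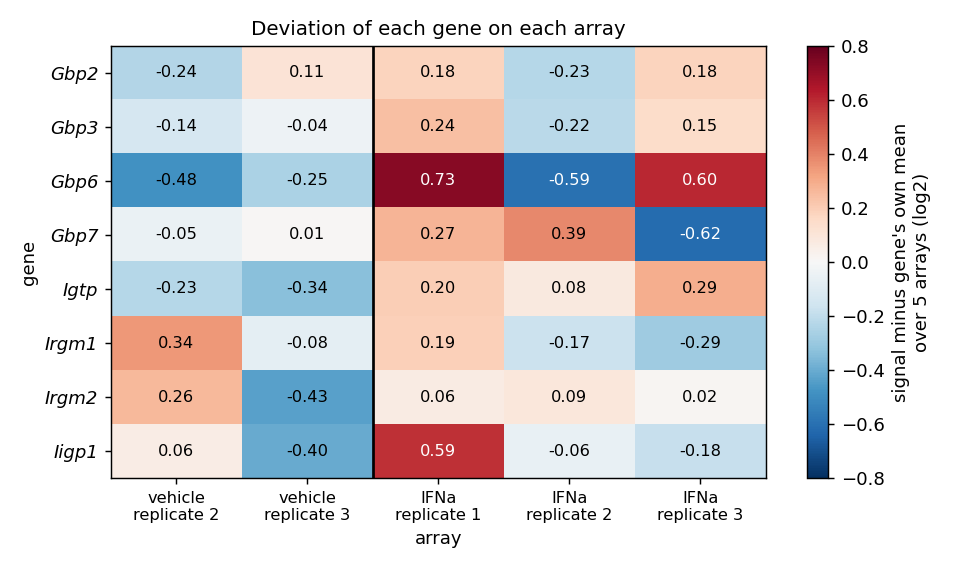
Deposited signal of each gene minus its own mean over the 5 arrays, in log2 units. Genes are in rows and arrays in columns (vehicle left of the line, IFNa right). Red cells fill the column of IFNa replicate 1, where all 8 genes are above their mean, and the other IFNa columns hold both signs.

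Within the set, the most alike pair was Gbp2 and Gbp3, whose deviations differed by a root mean square of 0.087 over the 5 arrays. The Gbp2 probe set can match other transcripts, so this likeness is uncertain. The least alike were Gbp6 and Gbp7, at 0.76, which went in opposite directions on IFNa replicates 2 and 3. Igtp and Irgm2, with their related promoters, differed by 0.26, mainly through vehicle replicate 2. Outside the set, likeness to the mean deviation of the 8 genes was measured in the same way over 8425 genes with a signal above the median and at least its range. The 5 nearest genes were B3galt5 (a galactosyltransferase, 0.055), Serpinb9 (an inhibitor of granzyme B, 0.055), Plxnd1 (a semaphorin receptor, 0.057), Lama1 (a laminin chain, 0.080) and Psma5 (a proteasome subunit, 0.086). With 5 arrays, likeness of this kind describes these arrays alone.

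Of 24 other family symbols looked for, which include older names, 6 had a row of their own. In limma 0 of these passed, and at an unadjusted p under 0.05 stood 0. Their median difference was 0.17. Ifi47, an IRG also called Irgd, read 8.14, 8.13 and 8.33 with IFNa and 8.04 and 8.08 with vehicle. Its groups did not overlap, yet its difference was 0.14 ± 0.46 (adjusted p = 0.965, limma) and turned to -0.07 after quantile normalization. Gbp2b, the mouse gene formerly called Gbp1, read 2.69 to 4.71 with IFNa, and that highest value was IFNa replicate 2. On vehicle it read 2.76 and 2.96, and its difference of 0.51 ± 0.62 turned to -0.16 without IFNa replicate 2. The IRG-related gene Irgq, with the smallest p of the list, differed by 1.07 ± 0.67 (adjusted p = 0.687, limma), or 0.46 without vehicle replicate 2. The remaining 3 were Gm12185 at 0.20 ± 0.45, Irgc1 at 0.11 ± 0.38 and Gbp8 at -0.047 ± 0.49, and single arrays turned the sign of each. With arrays left out in turn, Gm12185 ranged from -0.20 to 0.61, Irgc1 from -0.0093 to 0.22 and Gbp8 from -0.44 to 0.35. In the promoter windows, Gbp2b and Gm12185 held 1 ISRE core each, and Ifi47 and Irgq held 0.

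Upstream of the family, 13 receptors, kinases and transcription factors were measured. In limma 0 were called, also 0 at an unadjusted p under 0.05, and the median of their differences was 0.02. That median moved with single arrays. It became 0.35 without vehicle replicate 2 and -0.098 without vehicle replicate 3, and quantile normalization gave -0.21. Socs1 was not analysed here for want of a row with that symbol alone. Ifnar2, a chain of the interferon-alpha receptor, had the smallest p of the list. It read 12.2, 12.1 and 11.7 with IFNa and 11.6 and 11.1 with vehicle, fully apart, and its difference of 0.64 ± 0.30 did not pass (adjusted p = 0.545, limma). The other chain, Ifnar1, differed by 0.07 ± 0.57, or by 0.61 and -0.46 without vehicle replicate 2 or 3. The interferon-gamma receptor chains were Ifngr1 at -0.82 ± 0.71 and Ifngr2 at 0.02 ± 0.43. Ifngr1 ranged from -1.28 to -0.24 with single arrays left out, and Ifngr2 from -0.32 to 0.35. The kinases bound to these receptors differed by -0.10 ± 0.42 for Jak1, -0.09 ± 0.54 for Jak2 and -0.0033 ± 0.59 for Tyk2. Each took both signs when arrays were left out. Jak1 then ranged from -0.38 to 0.17, Jak2 from -0.44 to 0.17 and Tyk2 from -0.74 to 0.73.

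Among the transcription factors, Irf2 was higher on all IFNa arrays, at 9.08, 9.24 and 9.17 against 8.14 and 8.42. IRF2 can compete with IRF1 for the same motif. The difference of 0.88 ± 0.45 had an adjusted p of 0.590 in limma. Irf1, which drives GBP genes, read 9.68, 10.1 and 9.23 with IFNa and 9.83 and 9.71 with vehicle, a difference of -0.11 ± 0.45 (adjusted p = 0.975, limma), or 0.11 without IFNa replicate 3. Irf9, the DNA-binding subunit of the complex that reads the ISRE, differed by 0.54 ± 0.66. Without vehicle replicate 2 or 3 that value was 1.18 and -0.098. Its partner Stat2 differed by 0.27 ± 0.57, and ranged from -0.028 without vehicle replicate 3 to 0.62 without IFNa replicate 3. The largest differences of the list were in Irf8, a myeloid factor that pairs with IRF1, at 1.70 ± 0.91, and in Batf2, a partner of the same factors, at -1.44 ± 0.69. Their groups overlapped. Irf8 read 7.14 on vehicle replicate 3 and 9.71 or more elsewhere. Its difference was 0.20 without that array and 3.20 without vehicle replicate 2. Batf2 lay at -0.78 without vehicle replicate 2 and at -2.09 without vehicle replicate 3.

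Partners of the GTPases were tested from lists. Prenylation enzymes attach the lipid that anchors several GBPs to membranes. By limma 0 of the 6 were called and 1 reached an unadjusted p under 0.05, and the median of their differences was -0.04. That gene, Fnta, the subunit shared by the farnesyl and geranylgeranyl transferases, read 10.8, 10.5 and 11.03 with IFNa and 9.52 and 8.58 with vehicle. Its difference was 1.74 ± 0.45 (adjusted p = 0.298, limma), between 1.27 and 2.22 when vehicle replicate 3 or 2 was left out.

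The autophagy conjugation system places IRGs and GBPs on their target vacuoles. Of its 12 genes and ubiquitin partners, limma called 0, and 1 reached an unadjusted p under 0.05. The median difference was -0.55, with 9 below 0 and 3 above, against 9596 of all 17756 genes below 0. The groups lay fully apart for 5 of 12, with IFNa lower in each. Over all genes they did so with IFNa lower for 2500 of 17756, and for 25.6% in either direction. The median stayed between -0.70 and -0.33 over the alternatives, and was -0.33 without IFNa replicate 3. Atg16l1, a scaffold of that system, had the smallest p. It read 4.85, 4.57 and 4.85 with IFNa and 6.15 and 5.78 with vehicle, and its difference was -1.21 ± 0.36 (adjusted p = 0.351, limma).

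Among 8 inflammasome genes, which act after GBPs expose bacterial ligands, limma called 0, and 0 reached an unadjusted p under 0.05. Their median difference was 0.09, or -0.26 without vehicle replicate 3. The smallest p was that of the cytokine Il18, which read 7.62, 7.99 and 6.23 with IFNa and 8.40 and 8.48 with vehicle. Its difference of -1.16 ± 0.65 had an adjusted p of 0.642 in limma, and was -0.63 without IFNa replicate 3.

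The 15 measured type I interferon effectors, the genes most directly read out by interferon-alpha, gave the same count as the GTPases. By limma 0 were called and 0 reached an unadjusted p under 0.05. The median difference was 0.05, or -0.09 after quantile normalization. All 15 lay within 0.5 of 0 on the log2 scale, as did 7 of the 8 GTPase genes and 11112 of all 17756 genes. The difference between the 2 sets was not tested. Mx2, an antiviral GTPase of the dynamin family, had the smallest p, with a difference of 0.47 ± 0.44, or -0.07 without vehicle replicate 3.

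**Figure D4:**
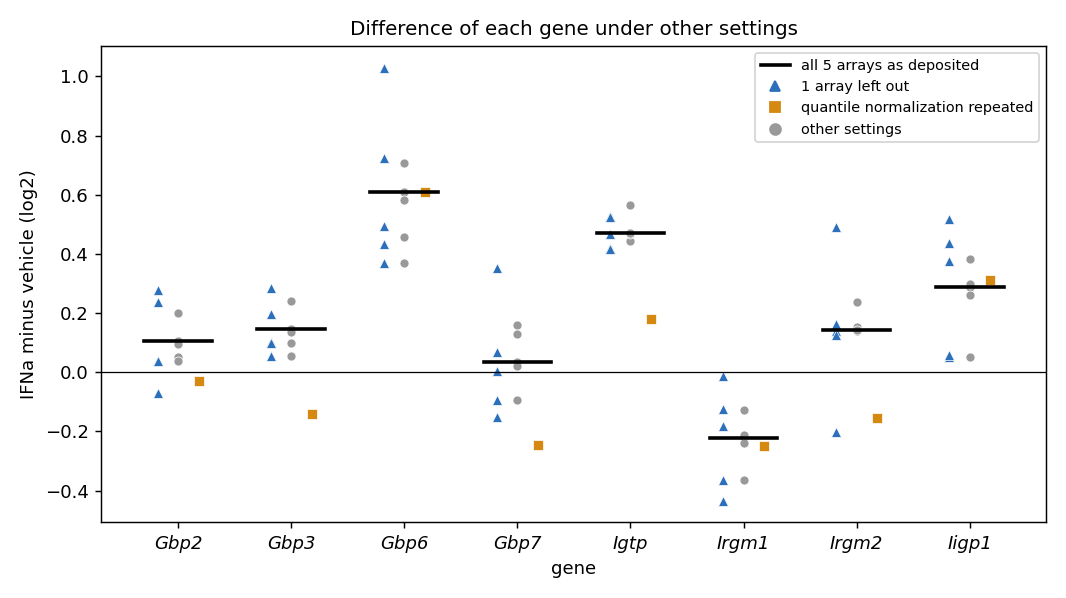
Difference between IFNa and vehicle (log2) of each of the 8 genes as deposited (black bars), with 1 array left out (blue triangles), after a repeated quantile normalization (orange squares) and under the other settings (grey circles). Gbp6, Igtp and Iigp1 stay above 0 and Irgm1 below 0 under all settings shown, and the other 4 genes cross 0.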

How the data were processed

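The authors deposited log2 probe set signals. The submitters' processing notes name RMA, which corrects background, normalizes between arrays and summarises probes, without a version or settings. Per the labels' protocols, NuGen amplification and biotin labelling came before hybridisation. The signals spanned -1.95 to 15.6, a low end that RMA seldom gives, so differences of dim values are uncertain. The arrays also differed in spread (SD over all rows 2.53 to 2.80), which a quantile normalization equalizes. Here a repeated normalization means one applied to the deposited values. It turned the signs of Gbp2, Gbp3, Gbp7 and Irgm2, so small differences of brighter genes are uncertain too. The number of arrays limits the precision.

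The platform annotation gave 1 symbol for 17838 of 20881 rows, several for 244 and none here for 2799. For 81 of 17756 genes with more than 1 row, the row with the highest mean was used. Groups came from the sample titles, which call the replicates biological. IFNa was compared with vehicle over all 5 arrays and genes with limma 3.58.1 in R 4.3.3 (lmFit, eBayes with a variance trend, two-sided). On 10 simulated sets of 17756 genes with 200 changed genes each, this fit for IFNa over vehicle called 0.4% of the genes given a log2 change of 1, 13.2% at 2 and 43.4% at 3.

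The members and lists were chosen with earlier results of these data known. Named were all 8 members, the measured genes of the family and upstream lists, the called gene or the gene with the smallest p of each other list, and the 5 genes most alike in pattern. Permuting labels exactly was also run per member, but 3 arrays against 2 allow no p below 0.1, so those values are not given. Ptprc and Cdh5 were named as sort markers, outside that rule. Alternatives were the mean of all rows, all rows separately, a floor at the 20th percentile, testing brighter genes only, other variance settings, array weights, 2 normalizations, a replicate block and leaving out each array. Marker lists held sort and stem cell genes (8 measured), macrophage markers (12), and granulocyte and monocyte progenitor markers (6). The others held erythroid (7), endothelial (8), lymphoid and NK (6) and mesenchymal (8) markers. Of these 55 genes limma called 0, and 7 reached an unadjusted p under 0.05. Over all genes the shares were 0.135% and 10.0%, so these counts are no result about the cell types. The smallest p of each of these lists was that of Cd34 (-2.61), Timd4 (-2.54), Prtn3 (1.15), Hba-a1 (-0.58), Tek (2.15), Ncr1 (-0.50) and Tagln (-1.73). These are log2 differences, IFNa minus vehicle, of 1 gene each and do not stand for their lists. The list medians, in the same order, were -0.0035, -0.064, 0.25, -0.58, -0.17, -0.29 and 0.39. Genes above and below 0 numbered 4 and 4, 5 and 7, 4 and 2, 1 and 6, 3 and 5, 0 and 6, and 4 and 4. Ncr1 stayed below the 20th percentile on every array (2.36 to 3.20).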

Additional observations from a re-analysis of the deposited data

How the results depend on the processing

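Over 16 refits and a looser threshold, 0 of the 8 GTPase genes passed in limma, and the adjusted p of Igtp lay between 0.669 and 0.957. The median difference of the 8 genes ranged from -0.087 (quantile normalization repeated) to 0.29. That normalization also turned the sign of Gbp2 (-0.031), Gbp3 (-0.14), Gbp7 (-0.24) and Irgm2 (-0.15). With arrays left out in turn, Gbp2 ranged from -0.069 to 0.28, Gbp7 from -0.15 to 0.35, Irgm2 from -0.20 to 0.49, and the median from 0.05 to 0.29. Over all genes, 24 were called. An adjusted p under 0.1 gave 62, genes above the median signal 1, no variance trend 3, and a floor at the 20th percentile 0 (1494 at an unadjusted p under 0.05, limma). Leaving out IFNa replicate 1, 2 or 3 gave 1, 9 and 0 (1615 at an unadjusted p under 0.05, limma, for the last), and leaving out vehicle replicate 2 or 3 gave 181 and 150, the lone vehicle array being assumed to vary like the others. Both groups hold a replicate 2 and a replicate 3, with correlations of 0.0024 and 0.043 between same-numbered deviations, and no label ties them. A fixed replicate block, with 1 residual degree of freedom left, gave 0 calls (1441 at an unadjusted p under 0.05, limma) and Gbp7 was at -0.094. A random block gave 36 calls, none among the 8. The causes were not tested.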
